A study of Homo sapiens with 6 samples.

Results

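Open chromatin was measured by ATAC-seq around 9 antioxidant response genes in MCF10A cells, an immortalized, non-tumorigenic human mammary epithelial line with basal features. The genes were HMOX1, NQO1, GCLM, GCLC, TXNRD1, SRXN1, SLC7A11 and OSGIN1, which are known targets of the transcription factor NRF2, and KEAP1, the protein that holds NRF2 in check. They were chosen for this known role, at a time when earlier results of these data were known, and they are 9 of the 20007 protein-coding genes of GENCODE release 44 on chromosomes 1 to 22, X and Y. Wildtype cells were placed in phosphate-free HEPES-buffered Hanks salt solution and then left for 30 min in that buffer alone (Ctrl), or in buffer with 50 µM TPA, a chelator that removes cellular Zn2+, or with 30 µM ZnCl2. Each condition had 2 libraries, so 6 in all, each sequenced in more than 1 run and combined. The study's methods call the replicates biological and its results call them technical, so any spread between libraries of a group may be technical. The question here was whether chelating or adding Zn2+ went with a different accessibility at the regulatory regions of these genes.

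NRF2 is a basic leucine zipper factor that is made continuously and, in unstressed cells, handed by KEAP1 to a CUL3 ubiquitin ligase and degraded. Oxidants and electrophiles modify cysteines of KEAP1, which frees NRF2 to enter the nucleus, pair with a small MAF protein and bind antioxidant response elements. KEAP1 also carries Zn2+ at reactive cysteines. The target genes make glutathione, reduce thioredoxin and peroxiredoxin, break down heme and reduce quinones.

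For each library the deposited list gives open regions called by HMMRATAC with a score, and no read counts, so the depth behind a region is unknown. A region was described by its width and by its percentile, the percent of regions in the same library with a strictly lower score. The lists held 25031 and 44641 regions in Ctrl 1 and 2, 35902 and 41376 in TPA 1 and 2, and 38069 and 18887 in ZnCl2 1 and 2. A short list has fewer weak regions below any given one, and the median percentile over all coding start sites was lowest in the shortest lists, at 69.2 in Ctrl 1 and 65.1 in ZnCl2 2 against 70.3 to 80.1 in the other 4. Values are therefore also given with every list cut to its 18887 highest-scoring regions, where a start-site region under that rank counts as percentile 0. Of the 7 basal epithelial markers, only LAMB3 had its start in an open region in all 6 libraries, KRT5, KRT17 and EGFR had one in 5, KRT14 in 4 and CDH1 in 3, and TP63 had none at the start of its MANE Select transcript. ESR1, PGR, PTPRC, CD3E, PECAM1 and COL1A2, markers of hormone-responsive, blood, endothelial and fibroblast cells, had none in any library.

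RefSeq promoter sequences, from 250 bases before to 50 after a start, were matched for 7 of the 9 genes, and there was no entry for HMOX1 or SLC7A11. These 2 genes were left out of all sequence counts below, also of those read from hg38 around starts and in open regions. Shares over coding genes were not limited to genes with a promoter entry. The antioxidant response element core searched was TGACNNNGC, read on both strands, with TGACTCAGC as the form that also holds the AP-1-type heptamer TGACTCA. All 7 genes had at least 1 core within 1000 bp of the MANE Select start, beside 54.2% of the 20007 coding genes. For the form with TGACTCA it was 1 of 7, NQO1, beside 2.20% of coding genes. In the 20 merged open regions of these 7 windows there were 27 cores, and 14 of them lay inside a region in all 6 libraries. At least 1 core was in 18 of the 20. Over the 6 lists, 45.7% to 50.0% of regions of 1000 to 2000 bp held the core, and some of the merged regions are longer than that. The sequences below show, for each of the 7 genes, a core that was inside an open region in all 6 libraries, written 5′ to 3′ on the strand of the gene from hg38, with the 9 core bases in capitals. A core on the other strand therefore reads GCNNNGTCA. Where an annotated UTR is touched, 10 bases are shown on either side of the core, otherwise 20.
NQO1, -455 to -447 from the start, chr16:69726987-69727035, minus strand: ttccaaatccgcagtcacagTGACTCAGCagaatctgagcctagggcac
GCLM, -34 to -26, chr1:93909446-93909474, minus strand: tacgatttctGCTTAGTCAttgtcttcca
GCLC, -3156 to -3148, chr6:53548229-53548277, minus strand: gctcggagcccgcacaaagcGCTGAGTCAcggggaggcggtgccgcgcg
GCLC, -70961 to -70953, chr6:53616034-53616082, minus strand: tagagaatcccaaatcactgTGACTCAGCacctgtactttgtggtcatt
TXNRD1, 71151 to 71159, chr12:104286920-104286948, plus strand: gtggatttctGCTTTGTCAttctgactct
SRXN1, 606 to 614, chr20:652566-652614, minus strand: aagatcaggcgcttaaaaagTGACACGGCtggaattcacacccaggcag
OSGIN1, -557 to -549, chr16:83952663-83952711, plus strand: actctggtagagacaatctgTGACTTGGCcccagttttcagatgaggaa
KEAP1, 554 to 562, chr19:10502784-10502812, minus strand: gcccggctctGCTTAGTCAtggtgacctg
The NQO1 core overlaps the start of the divergent transcript NQO1-DT and is in an exon of it, and the TXNRD1 and KEAP1 cores are in exons of their own genes. The GCLM core lies at the outer edge of the first exon of its gene record. The GCLC, SRXN1 and OSGIN1 cores shown are inside their gene records but in no annotated exon. A match is a description of letters, not evidence that a factor was bound. Of the 9 RefSeq promoters of the 7 genes, 4 held a core within the 300 bases (1 of GCLM, 2 of TXNRD1 and 1 of KEAP1), beside 13.3% of the 35116 promoters in the table.

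At their MANE Select starts, 7 of the 9 genes lay in an open region in all 6 libraries, beside 43.0% of coding genes. The exceptions were HMOX1, whose start was covered in 4 libraries, and TXNRD1, whose MANE Select start was covered in none. NQO1 and GCLM had the highest percentiles of the 9 in every library, between 80.8 and 95.6. GCLC, SRXN1, SLC7A11, OSGIN1 and KEAP1 ranged from 28.7 to 87.3, with replicate gaps as large as the gaps between genes, so their order among themselves is not separated by these libraries.

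**Figure D1:**
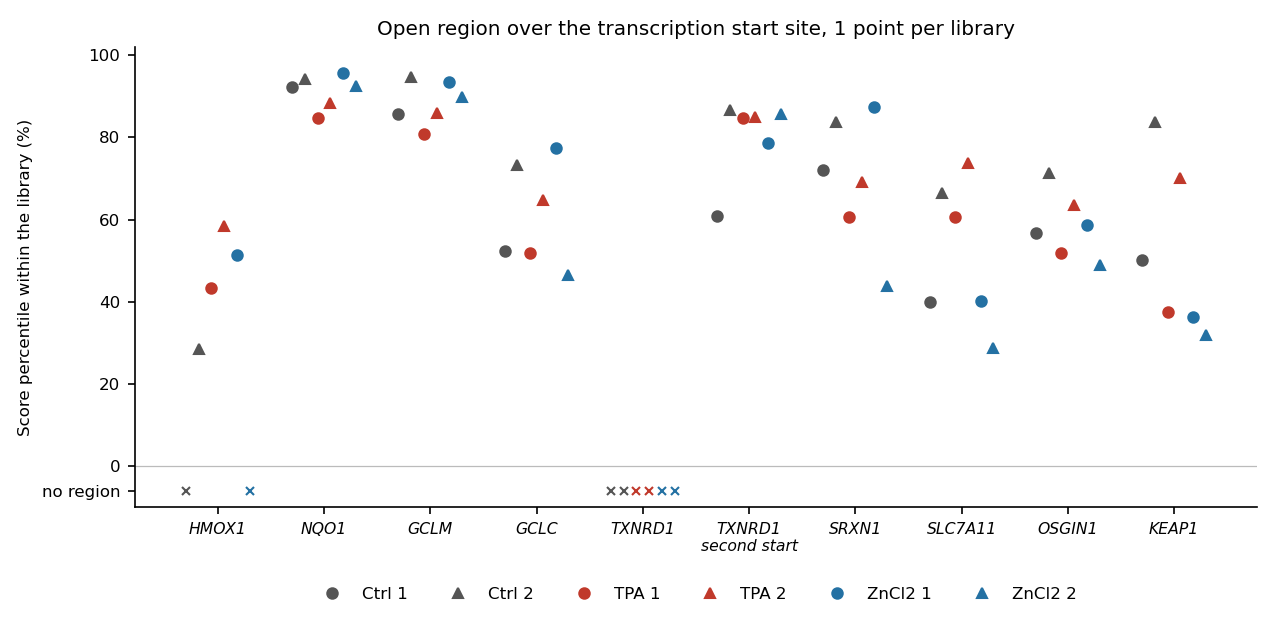
Score percentile within each library (%, vertical axis) of the open region over the start site of each gene, with 1 point per library, circles for replicate 1, triangles for replicate 2, and crosses where no region covered the start. The second start of TXNRD1 is the downstream RefSeq start, 71253 bp from the MANE Select start. NQO1 and GCLM stay at or above 80.8 in all 6 libraries, while HMOX1 has no region in Ctrl 1 and ZnCl2 2.

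NQO1 (chr16:69706996-69726668, minus strand), the quinone reductase that is the classical readout of NRF2 activity, had the region over its start at percentiles 92.2 and 94.2 in Ctrl, 84.7 and 88.4 in TPA, and 95.6 and 92.4 in ZnCl2. Both TPA libraries were below all 4 others. The difference of means was -6.63 points for TPA minus Ctrl (93.2 ± 1.38 in Ctrl, 86.6 ± 2.61 in TPA, SD, n = 2; exact permutation test, two-sided, p = 0.333, the smallest that 2 libraries against 2 allow). With lists of equal length the percentiles were 89.7 and 86.2 in Ctrl, 70.9 and 74.6 in TPA, and 91.2 and 92.4 in ZnCl2, so the TPA libraries were again the lowest and the difference from Ctrl was -15.2 points. The region was 1680 to 3210 bp wide, contained the -455 core printed above in every library, and was shared in all 6 with the start of NQO1-DT. A further region 13050 to 15959 bp downstream of the start was called in Ctrl 2, TPA 2 and ZnCl2 1, at percentiles of 6.68 to 18.6.

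Glutathione synthesis begins with glutamate-cysteine ligase, made of the catalytic subunit GCLC and the modifier subunit GCLM. GCLM (chr1:93885199-93909456, minus strand) was at percentiles 85.6 and 94.8 in Ctrl, 80.8 and 85.9 in TPA, and 93.4 and 89.8 in ZnCl2. Ctrl and TPA overlapped because Ctrl 1 lay just below TPA 2, whereas both TPA libraries were below both ZnCl2 libraries, with a mean difference of -8.27 points. With equal lists GCLM read 80.9 and 87.6 in Ctrl, 63.5 and 69.1 in TPA, and 86.7 and 89.8 in ZnCl2, and TPA then lay below all 4 other libraries.

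GCLC (chr6:53497341-53616970, minus strand) had a region over its start in every library, at percentiles 52.4 and 73.4 in Ctrl, 52.0 and 64.8 in TPA, and 77.4 and 46.6 in ZnCl2. The groups overlapped in every comparison. With equal lists it read 36.9 and 37.1 in Ctrl, 8.71 and 22.8 in TPA, and 54.5 and 46.6 in ZnCl2, so that the 3 groups no longer overlapped. Upstream of it, between -3749 and -2220 bp, lay a separate region of 1180 to 1510 bp that holds the -3156 core printed above. This upstream region was called in all 6 libraries at a higher percentile than the start-site region of GCLC, at 89.3 and 88.1 in Ctrl, 76.9 and 73.8 in TPA, and 92.1 and 74.0 in ZnCl2. Both TPA libraries were below both Ctrl libraries, a difference of -13.4 points (exact permutation test, p = 0.333), while ZnCl2 1 was above and ZnCl2 2 below Ctrl. Equal lists gave 85.9 and 71.9 in Ctrl, 56.0 and 42.6 in TPA, and 84.2 and 74.0 in ZnCl2. Regions of 1000 to 2000 bp held TGACTCAGC on either strand in 5.88% to 6.78% of cases over the 6 lists.

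A region at the far 5′ end of the GCLC gene record, -72259 to -70200 bp from the MANE Select start and over the start of LINC01564, also holds TGACTCAGC. Its percentiles were 66.1 and 79.0 in Ctrl, 82.1 and 84.3 in TPA, and 72.4 and 38.5 in ZnCl2, so TPA was above Ctrl by 10.6 points and above ZnCl2 by 27.8 points without overlap (exact permutation test, p = 0.333 for each). The 2 cores with TGACTCA in the GCLC window therefore lay in regions that stood on opposite sides of Ctrl in the TPA libraries.

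SLC7A11 (chr4:138164097-138242349, minus strand), the cystine importer xCT that supplies cysteine for glutathione, was at percentiles 39.9 and 66.5 in Ctrl, 60.7 and 73.8 in TPA, and 40.2 and 28.7 in ZnCl2. TPA lay above ZnCl2 in both libraries, by 32.8 points (67.3 ± 9.27 against 34.5 ± 8.12, SD, n = 2; exact permutation test, p = 0.333), and 97.2% of coding genes had a smaller difference in that direction. Ctrl overlapped both. With equal lists it read 20.3 and 20.9 in Ctrl, 25.3 and 42.6 in TPA, and 0 and 28.7 in ZnCl2, so TPA was then above Ctrl while TPA and ZnCl2 overlapped. SLC7A11 was the only one of the 7 genes with a higher mean in TPA than in Ctrl, on either scale. A region 5209 to 6978 bp into the gene was called at percentile 17.1 in Ctrl 2, 41.5 and 54.6 in TPA, and 0 in ZnCl2 1, and was not called in Ctrl 1 or ZnCl2 2. Another, at 41819 to 43008 bp, was called in every library but ZnCl2 2 at 23.6 to 50.3.

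Thioredoxin reductase 1 (TXNRD1, chr12:104215779-104350307, plus strand) reduces thioredoxin with NADPH. Its MANE Select start was in no open region in any library, but the downstream RefSeq start, 71253 bp further on, was in one in all 6. There the percentiles were 60.8 and 86.8 in Ctrl, 84.7 and 84.9 in TPA, and 78.6 and 85.7 in ZnCl2, and the groups overlapped in each comparison. The TXNRD1 core printed above lies just before that start. Reading each gene at its highest RefSeq start, an alternative added after the data were seen, gave 8 of 9 genes with an open start in all 6 libraries. The matching share of coding genes was not computed.

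The TXNRD1 window held 7 merged regions, the most of the 9 windows. Inside the gene record, 2302 to 5971 bp from the MANE Select start, a region was called at percentile 52.4 and 76.6 in Ctrl, 76.0 and 67.0 in TPA, and 28.1 and 21.6 in ZnCl2. Both ZnCl2 libraries were below the 4 others, with -39.6 points for ZnCl2 minus Ctrl and 46.6 points for TPA minus ZnCl2 (exact permutation test, p = 0.333 for each). With equal lists these values were 36.9 and 44.6, 54.4 and 27.7, and 0 and 21.6, and ZnCl2 was again the lowest. Further in, at 64382 to 65611 bp and over the start of a long noncoding RNA, a region was at 37.1 and 51.0 in Ctrl, 76.9 and 75.6 in TPA and 23.6 in ZnCl2 1, and was not called in ZnCl2 2. TPA was above Ctrl there by 32.2 points without overlap, and in equal lists by 56.0 and 46.6 against 16.7 and 0. This region holds a TGACTCAGC core, inside the region in both Ctrl and both TPA libraries. A region at 39452 to 40881 bp was the only one of the 28 in both TPA and neither Ctrl library, at percentiles of 3.39 and 0, and it was also called in ZnCl2 1. Over the genome 2.04% of merged regions had that pattern.

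**Figure D2:**
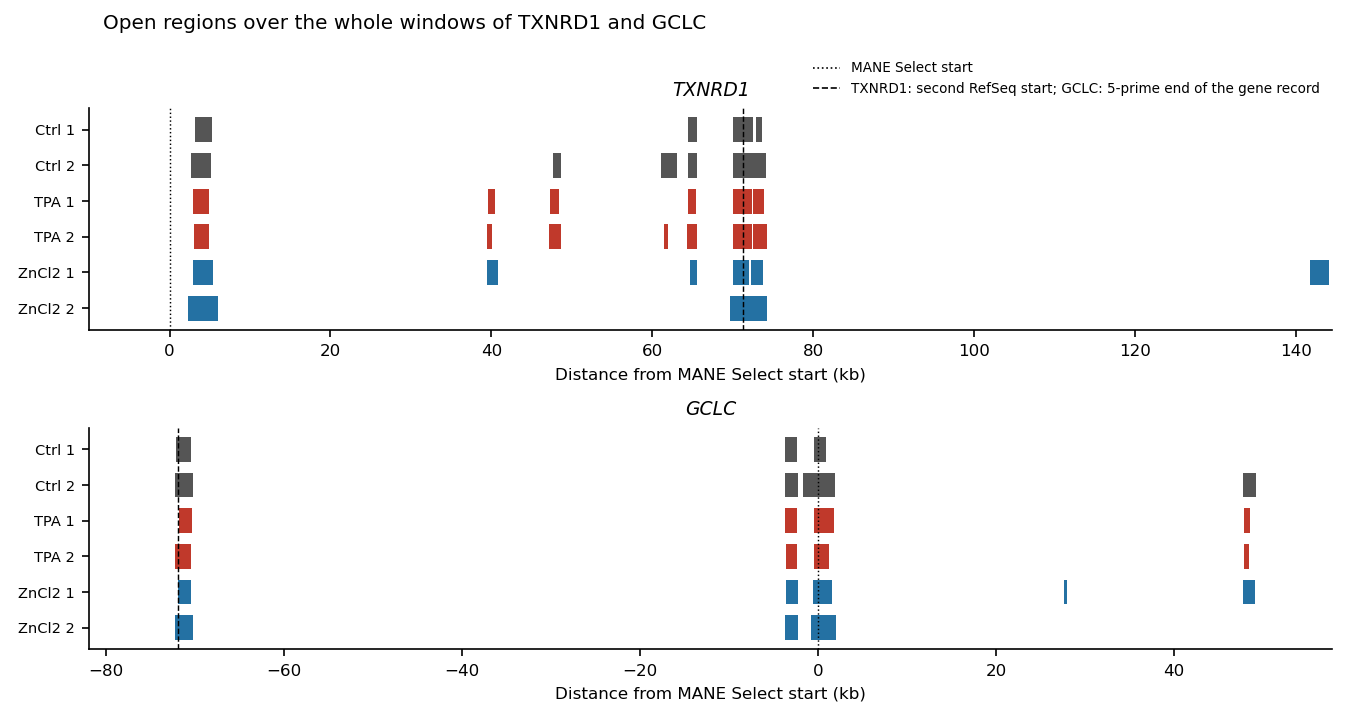
Open regions (bars) over the whole windows of TXNRD1 and GCLC in each of the 6 libraries, by distance from the MANE Select start in kb along the gene's strand. Dotted lines mark the MANE Select start, and dashed lines mark the downstream RefSeq start of TXNRD1, which all 6 libraries cover, and the 5′ end of the GCLC gene record. At TXNRD1 no bar touches the dotted line.

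Sulfiredoxin (SRXN1, chr20:646615-653200, minus strand), which restores overoxidized peroxiredoxins, had 1 region in its window in each library, over the start. It was at percentiles 72.0 and 83.7 in Ctrl, 60.7 and 69.1 in TPA, and 87.3 and 43.9 in ZnCl2. Both TPA libraries lay below both Ctrl libraries, a difference of -13.0 points (64.9 ± 5.92 against 77.9 ± 8.28, SD, n = 2; exact permutation test, p = 0.333). ZnCl2 replicates spanned more than this difference, with 1 above and 1 below all other libraries. Equal lists gave 62.9 and 61.5 in Ctrl, 25.3 and 32.2 in TPA, and 74.4 and 43.9 in ZnCl2, a TPA minus Ctrl difference of -33.5 points.

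HMOX1 (chr22:35380361-35394214, plus strand), heme oxygenase 1, which cleaves heme to biliverdin, iron and carbon monoxide, had a narrow region of 800 to 980 bp over its start in 4 libraries. It was at percentile 28.6 in Ctrl 2, 43.4 and 58.6 in TPA, and 51.3 in ZnCl2 1, and was not called in Ctrl 1 and ZnCl2 2, the 2 shortest lists. With Ctrl and ZnCl2 each represented by 1 library, no difference between groups was computed. Upstream, a region between -4735 and -2746 bp was called in Ctrl 2, at percentile 0, and in ZnCl2 1, at 59.7, and one at -10055 to -8366 bp in ZnCl2 1 only, at 25.8. Downstream, all 6 libraries had a region over the start of MCM5, a replicative helicase subunit, at 28.7 to 78.0.

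OSGIN1 (chr16:83931311-83966332, plus strand), an oxidative stress induced growth inhibitor, was at percentiles 56.8 and 71.3 in Ctrl, 52.0 and 63.6 in TPA, and 58.7 and 48.9 in ZnCl2. The groups overlapped in all comparisons. Equal lists gave 42.7 and 32.1 in Ctrl, 8.71 and 20.2 in TPA, and 16.7 and 48.9 in ZnCl2, where TPA lay below Ctrl. A distal region at -27659 to -25170 bp was called in all 6 libraries at 21.6 to 67.5 without separating the groups.

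KEAP1 (chr19:10486125-10503558, minus strand), the adaptor that targets NRF2 for degradation, was at percentiles 50.1 and 83.7 in Ctrl, 37.4 and 70.1 in TPA, and 36.4 and 32.0 in ZnCl2. Both ZnCl2 libraries lay below the 4 others. ZnCl2 minus Ctrl was -32.7 points (34.2 ± 3.11 against 66.9 ± 23.8, SD, n = 2; exact permutation test, p = 0.333), and 0.998% of coding genes had a more negative difference. The Ctrl libraries were themselves far apart, and the smaller gap to ZnCl2 was that of Ctrl 1. With equal lists KEAP1 read 33.9 and 61.5 in Ctrl, 0 and 34.5 in TPA, and 0 and 32.0 in ZnCl2. ZnCl2 was then still below Ctrl, with a difference of -31.7 points, but overlapped TPA. The width of the region did not follow its percentile. It was 1610 and 2800 bp in Ctrl, 1980 and 1700 bp in TPA, and 2280 and 2720 bp in ZnCl2. By width ZnCl2 overlapped Ctrl and lay above TPA.

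**Figure D3:**
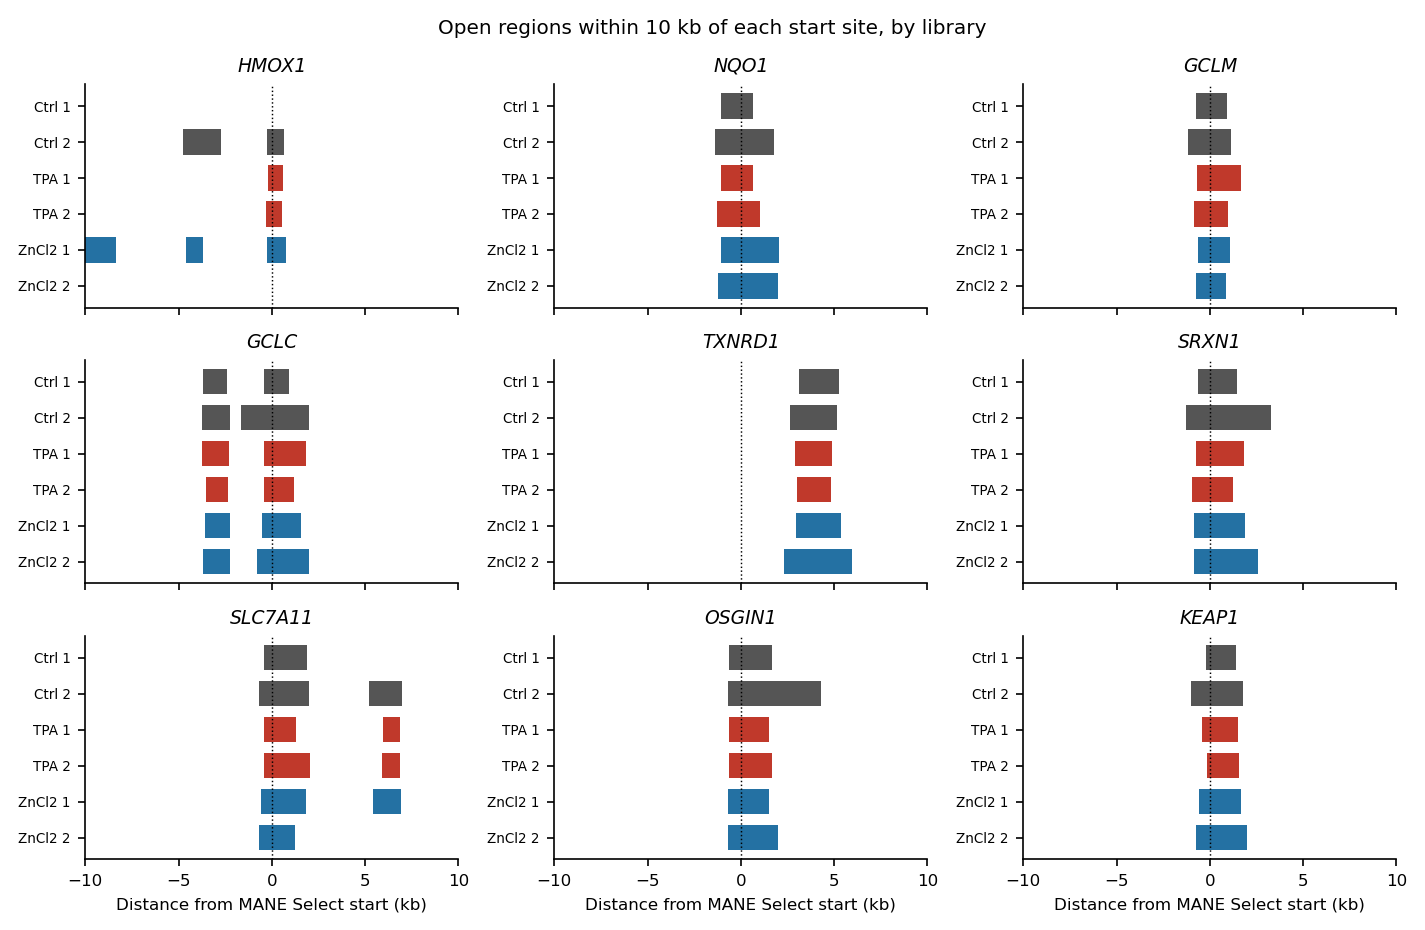
Open regions (bars) within 10 kb of the MANE Select start (dotted line, horizontal axis in kb along the gene's strand) of each gene, with 1 row per library and colors for Ctrl, TPA and ZnCl2. Every library has a bar over the start of NQO1, GCLM, GCLC, SRXN1, SLC7A11, OSGIN1 and KEAP1, and the separate upstream bar of GCLC is present in all 6.

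For TPA against Ctrl, 0 of the 7 genes with a start region in all 4 libraries were higher in both TPA libraries and 2 were lower in both, NQO1 and SRXN1. Over 9723 coding genes the shares were 11.4% higher and 22.3% lower. The median difference of the 7 genes was -6.63 points, beside -0.16 over coding genes, and it was 1.02 without Ctrl 2, -0.44 without TPA 1, -10.9 without TPA 2 and -13.5 without Ctrl 1, each over the same 7 genes. With equal lists 5 of the 7 were lower (NQO1, GCLM, GCLC, SRXN1 and OSGIN1) and 1, SLC7A11, was higher, beside 36.6% lower and 12.1% higher over coding genes, and the median was -21.2 points beside -4.25. The split thus depended on how the lists were made comparable. In both versions 6 of the 7 had a lower mean in TPA than in Ctrl, beside 51.3% of coding genes with all regions and 64.4% with equal lists. The 7 leave out HMOX1 and TXNRD1, which did not share this direction with all regions. HMOX1 was at 28.6 in Ctrl 2, with no region in Ctrl 1, and at 43.4 and 58.6 in TPA. At its downstream RefSeq start TXNRD1 had a mean 11.0 points higher in TPA, with overlapping groups.

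For ZnCl2 against Ctrl, 0 of 7 genes were higher and 1, KEAP1, was lower in both ZnCl2 libraries, beside 2.60% higher and 13.1% lower of 8820 coding genes. The median difference was -10.2 points beside -2.79, and it was 2.43 without ZnCl2 2, the shortest list, -2.94 without Ctrl 2, -16.3 without ZnCl2 1 and -17.5 without Ctrl 1. With equal lists NQO1 and GCLC were higher and KEAP1 was lower, beside 24.6% higher and 17.1% lower, and the median was -3.08 points beside 1.01.

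TPA and ZnCl2 were also set against each other. SLC7A11 and KEAP1 were higher in both TPA libraries and NQO1 and GCLM lower, 2 of 7 each way, beside 21.4% higher and 17.8% lower of 8818 coding genes. The median difference was -0.71 points beside 1.71, and it was 11.8 without ZnCl2 1, 3.47 without TPA 1, -4.90 without TPA 2 and -9.06 without ZnCl2 2, each over the same 7 genes. With equal lists 0 were higher and 4 were lower (NQO1, GCLM, GCLC and SRXN1), beside 14.7% higher and 45.9% lower, and the median was -19.0 points beside -6.78. NQO1 and GCLM were lower in TPA than in ZnCl2 on both scales, and SLC7A11 and KEAP1 overlapped once the lists were equal. The TPA and ZnCl2 comparisons share the same Ctrl libraries.

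**Figure D4:**
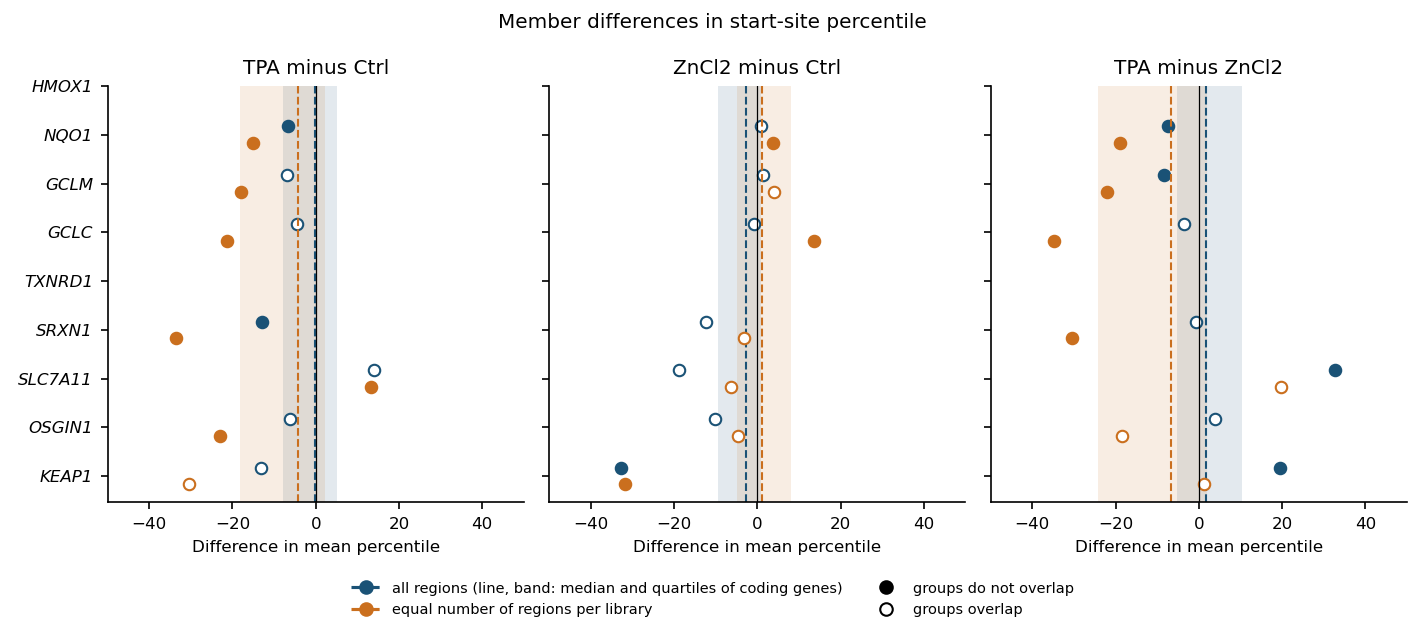
Difference in mean start-site percentile (horizontal axis, percentile points) for each gene and comparison, with all regions in blue and with equal lists in orange, where filled points mark groups that do not overlap. Dashed lines and bands give the median and quartiles over coding genes, and HMOX1 and TXNRD1 have no point because a start region was missing. In the TPA minus Ctrl panel, 6 of 7 genes lie left of 0 on both scales and SLC7A11 lies right of it. Of coding genes, 51.3% had a negative difference with all regions and 64.4% with equal lists.

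Over the 9 windows, the gene bodies with 10 kb on either side, the regions of the 6 lists merged into 28. Of these 13 were called in all 6 libraries and 6 were missing only in Ctrl 1, ZnCl2 2 or both, the 2 shortest lists. Over the genome 32.0% of merged regions were in all 6 libraries and 22.5% had the latter pattern. Away from the gene's MANE Select start lay 20 regions, among them the region over the downstream RefSeq start of TXNRD1. For TPA against Ctrl, 8 of these had values in all 4 libraries, of which 2 were higher in TPA (the LINC01564 region of GCLC and the region 64382 bp into TXNRD1) and 1 was lower (the upstream region of GCLC), beside 25.0% higher and 12.6% lower of 22309 merged regions. For ZnCl2 against Ctrl, 0 of 6 were higher and 1 was lower, the region 2302 bp into TXNRD1, beside 2.63% and 17.3% of 16378. For TPA against ZnCl2, 2 of 6 were higher in TPA, the LINC01564 region of GCLC and the region 2302 bp into TXNRD1, and 0 were lower, beside 36.9% and 12.4% of 16717.

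The share of a window called open reached its highest value, over the 9 genes and 6 libraries, at SRXN1 in Ctrl 2. For SRXN1 it was 7.75% and 17.0% in Ctrl, 9.67% and 8.31% in TPA, and 10.3% and 12.8% in ZnCl2. Ctrl 2 had a larger open share than Ctrl 1 at all 9 genes, so that Ctrl overlapped the treated groups nearly throughout. In TPA against Ctrl 0 genes were higher and 1, OSGIN1, was lower (6.00% and 12.1% in Ctrl, 5.69% and 5.94% in TPA), beside 1.82% higher and 7.74% lower of the 20007 coding gene windows. In ZnCl2 against Ctrl 0 of 9 were higher and 0 lower, beside 3.71% and 2.18%. In TPA against ZnCl2 GCLM was higher, and HMOX1, GCLC, SRXN1, OSGIN1 and KEAP1 were lower, 5 of 9 beside 28.1% lower and 8.59% higher. For KEAP1 the values were 5.29% and 4.54% in TPA against 6.09% and 7.27% in ZnCl2, and for SRXN1 the same 2 groups are given above. The median difference over the 9 genes was -1.76 percentage points for TPA minus ZnCl2, beside -0.07 over coding genes. It was -0.50 without ZnCl2 1, and in the upper 50% of each list it turned to 1.26, with 3 genes higher and 1 lower. The shares over coding gene windows under that cut were not computed, so whether the turn is particular to these genes is not known.

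**Figure D5:**
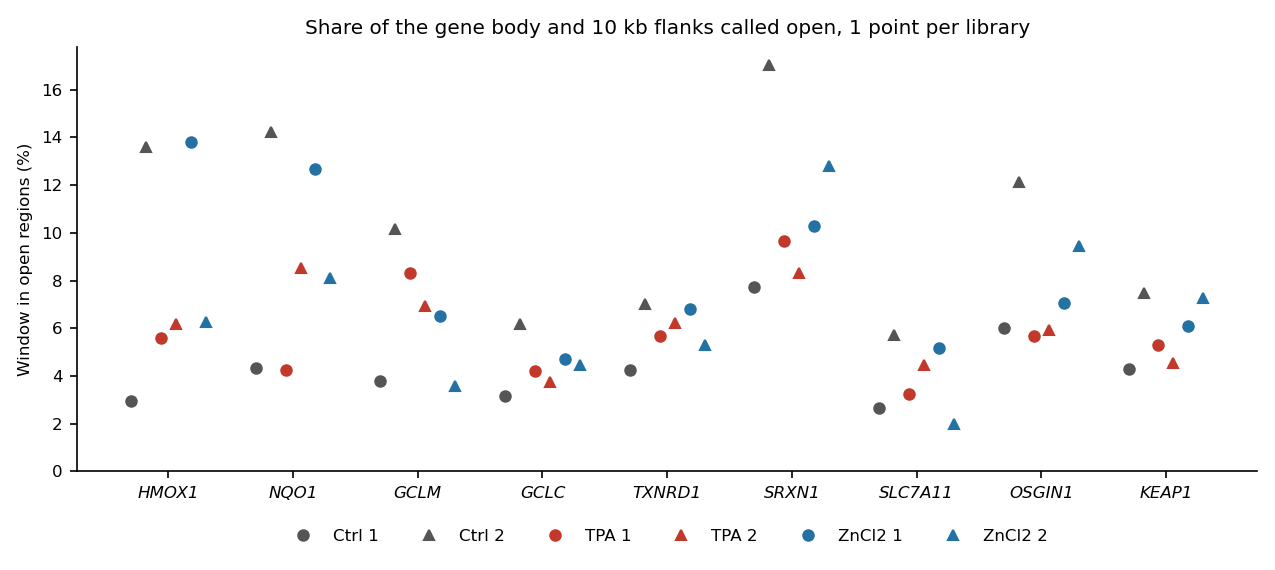
Percent of each window, the gene body with 10 kb on either side, that was called open (vertical axis), with 1 point per library, circles for replicate 1 and triangles for replicate 2. Ctrl 2 lies above Ctrl 1 at every gene, and at SRXN1 the values run from 7.75% to 17.0%.

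A further 42 genes of the pathway were read at their MANE Select starts. Of these, 29 had an open start in all 6 libraries, beside 43.0% of coding genes. Among 8 regulators, NFE2L2, the gene of NRF2 itself, was at percentiles 37.1 and 84.5 in Ctrl, 64.7 and 68.0 in TPA, and 60.8 and 35.2 in ZnCl2, so that TPA lay above ZnCl2 and overlapped Ctrl. NFE2L2 and SQSTM1 are named here after their values were seen. Regulators gave 1 of 8 higher in TPA than in Ctrl, beside 11.4% of coding genes. It was SQSTM1, the autophagy receptor that binds KEAP1 (82.5 and 93.2 in Ctrl, 96.4 and 96.2 in TPA). Higher in TPA than in ZnCl2 were 3 of 7, SQSTM1, NFE2L2 and MAFF, a small MAF partner, beside 21.4% of coding genes. MAFF was also the regulator that was lower in ZnCl2 than in Ctrl, at 59.7 and 41.2 against 86.3 and 67.4. That was 1 of 7 regulators, beside 13.1% of coding genes.

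The other lists held genes of glutathione and thioredoxin, NADPH supply, heme and iron, and detoxification and export, and in these 6 of 23 starts with values were lower in TPA than in Ctrl and 0 were higher, beside the 22.3% lower and 11.4% higher of coding genes. The difference between these lists and the regulators was not tested. Among starts whose groups did not overlap, the largest differences were at ABCC4, an organic anion exporter, at 75.5 and 84.1 in Ctrl against 52.0 and 36.3 in TPA, and at EPHX1, microsomal epoxide hydrolase, at 97.9 and 98.5 against 76.9 and 65.9. Both were also lower in TPA than in ZnCl2, where ABCC4 was at 87.6 and 69.3 and EPHX1 at 98.9 and 97.9. Over all 42 genes, 1 of 31 was higher and 6 of 31 lower for TPA against Ctrl, 0 and 2 of 31 for ZnCl2 against Ctrl (MAFF and UGDH, UDP-glucose dehydrogenase), and 3 and 4 of 29 for TPA against ZnCl2, to be read against the coding gene shares given above for each comparison. No open start was called in at least 1 library for BACH1, GPX2, GSTM3, FECH, AKR1B10, AKR1C1, AKR1C3, CBR1, CBR3, ABCC1, ABCC2, ABCC3 and TRIM16, of which GPX2 and GSTM3 had none in any. The AKR1C genes are close paralogs, and reads that fit more than 1 of them could have been placed at either.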

How the data were processed

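OMNI-ATAC libraries from MCF10A cells were made by the authors, who trimmed reads with BBDuk and checked them with FastQC 0.11.8. They aligned the reads to hg38 with HISAT2 2.1.0, indexed the alignments with SAMtools 1.8 and called open regions in each library separately with HMMRATAC. Its version is not given in the sources used here. The deposited lists hold intervals with a score in column 5, a whole number of at least 30, and no read counts, so the authors' test on reads was not run and neither depth nor intervals are given.

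Gene positions came from GENCODE release 44. A start was that of the MANE Select transcript, and a window was the gene record with 10 kb on either side. A region counted as over a start with at least 1 bp of overlap. Percentiles were computed within each library over chromosomes 1 to 22, X and Y. Groups were compared by an exact two-sided permutation test of the difference in means, whose smallest p with 2 against 2 libraries is 0.333, and by whether both values of a group lay above both of the other. The same was done for all coding genes and for merged regions. Promoter sequences were from RefSeq (GRCh38.p14). Python 3.11.15, pandas 2.3.3, SciPy 1.17.1 and pysam 0.24.0 were used, and the scripts were tested on simulated data.

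All 9 genes are named. Other pathway genes are named where a start had no region in at least 1 library or where the difference was among the 2 largest of a comparison whose groups did not overlap. NFE2L2 and SQSTM1 fall outside this rule and were named after their values were seen. The 9 genes were chosen for their known role, and both they and the lists were chosen with earlier results of these data known. Alternatives covered the list length, the rank used, the start site, the window and leaving out each library.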

Additional observations from a re-analysis of the deposited data

How the results depend on the processing

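Depth is unknown, list length differed between libraries, and 2 libraries a group cannot give p below 0.333. The count of 7 genes with an open start in all 6 libraries became 5 in equal lists, without SLC7A11 and KEAP1, 2 in the upper 50% of each list and 4 at the 5′ end of the gene record, and was 7 without any 1 library. The share of coding genes was 43.0% in the main setting and was not computed for the alternatives. Whether the lower counts are particular to these genes is therefore not known.

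For genes whose groups did not overlap, TPA against Ctrl gave 2, which became 6 with equal lists and 4 with ranks among start-site regions, where 24.0% of coding genes were higher and 23.7% lower. ZnCl2 against Ctrl gave 1, which became 3 with equal lists, 4 with ranks among start-site regions (13.2% of coding genes higher and 20.1% lower), 2 with mid-rank percentiles (2.73% and 13.6%), and 0 of 4 at the 5′ end of the gene record (2.74% and 13.6%). Without 1 library, 1 library stands against 2 and groups separate more often, in 47.6% to 83.8% of coding genes over the 3 comparisons. The counts were then 3 to 7 for TPA against Ctrl, 3 to 5 for ZnCl2 against Ctrl and 4 to 7 for TPA against ZnCl2, from a main count of 4. Without Ctrl 1, HMOX1 entered the TPA and Ctrl comparison and the count was 7 of 8, or 6 of the same 7.

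The median percentile difference went from -6.63 to -21.2 with equal lists for TPA minus Ctrl and from -0.71 to -19.0 for TPA minus ZnCl2. Without 1 library it ran from -12.5 to 1.02 for TPA minus Ctrl, from -17.5 to 2.43 for ZnCl2 minus Ctrl and from -4.98 to 11.8 for TPA minus ZnCl2. The values -12.5 and -4.98 are over 8 genes, HMOX1 included, and were -13.5 and -9.06 over the same 7, a version added after seeing the data. The median difference in open share for TPA minus ZnCl2, -1.76 percentage points, became -1.36 with equal lists and 1.26 in the upper 50%. Without 1 library it ran from -1.87 to -0.50, for TPA minus Ctrl from -2.56 to 1.24, and for ZnCl2 minus Ctrl from -3.56 to 2.26, with the highest values of the latter pair without Ctrl 2. The cause of the shifts with list length was not tested.

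A check of whether replicate numbers pair libraries across groups gave correlations of 0.17 for TPA and Ctrl and -0.46 for ZnCl2 and Ctrl. For TPA and ZnCl2 the correlation was -0.13, each over 8610 genes, so the numbers do not establish a pairing. These values concern the pairing check only and do not measure how alike the libraries were. With the replicate block, 7 of 7 genes lay on the same side in both pairs for TPA against Ctrl. Of these, 1 was higher and 6 were lower, beside 23.1% and 33.6% of coding genes. For ZnCl2 against Ctrl it was 1 of 7, beside 18.05% of coding genes in either direction. For TPA against ZnCl2 it was 4 of 7, beside 48.98% in either direction. The crossed pairing, chosen after seeing the data, gave 2 for TPA against Ctrl, 4 for ZnCl2 against Ctrl and 5 for TPA against ZnCl2. The shares of coding genes in either direction were then 43.0%, 60.5% and 60.6%.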
